A study of Mus musculus with 2 samples.

Results

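The cytosolic ribosome is built from a large and a small subunit, and each is a scaffold of ribosomal RNA to which ribosomal proteins bind, most of them in single copy. Their mRNAs belong to the TOP class, which begins with a C followed by a run of pyrimidines and whose translation is controlled by mTORC1 through LARP1, and they are among the most abundant messages of growing cells. Loss of a copy of some of these genes disturbs the mouse skeleton, tail or pigment, as in the Rpl38 mutant Tail short and the Rpl24 mutant Belly spot and tail. The genes described here are all 79 ribosomal protein genes, 47 of the large and 32 of the small subunit, among 13916 protein-coding genes of a comparison between the distal and the proximal parts of limb-mesenchymal organoids. They were chosen by symbol alone (Rpl, Rps, Rplp and Rpsa names, leaving out pseudogene symbols and the Rps6k kinases), so the rule itself uses no measured value. They hold 76 of 77 listed standard ribosomal protein genes and 3 paralogs, Rpl7l1, Rpl36al and Rps27l. Rpl29 was not analysed here, nor were the paralogs Rpl3l, Rpl10l, Rpl22l1, Rpl26l1, Rpl39l and Rps4l.

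The organoids were grown from mouse embryonic limb mesenchymal cells of the Slc:ICR stock for 48 h with Fgf8b and Wnt3a, an agent pair that both groups shared, and frozen on day 2. Distal and proximal areas of 10 µm sections were captured by photo-isolation chemistry, in which reverse transcription runs in the tissue with light-caged primers and illumination at 365 nm frees the cDNA of a chosen area. Each side gave 5 barcoded regions, pooled into 1 library a side, from 5 organoids of 4 cultures. Some regions of a side must therefore share a culture, and no label ties a region to an organoid. The regions are thus not independent, and p-values over them can be too small. Whether both sides came from the same organoids is not labelled either, so no pairing could be used. The library and the side are the same split and cannot be told apart. The age of the embryos is not given in the sources used here.

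The depth differed between the sides. About 46991 to 118978 counts stood behind a distal region and 214774 to 345649 behind a proximal one, as read from the size factors. Of the 8 limb mesenchyme markers, 7 had counts on both sides and Pitx1 had none in distal, with Prrx1, a mesenchymal homeobox gene, at a mean of 159 normalized counts in the authors' deposited table. Together they summed to 558 normalized counts in distal and 487 in proximal. Of these, 2 were called in the authors' deposited table, Msx1 higher in distal (log2 1.12, adjusted p = 2.09e-08) and Tbx5 lower (-1.41, adjusted p = 0.00199). The 6 cartilage markers in the table summed to 1191 in distal and 818 in proximal, of which Sox9 made up 842 and 522. Sox9, the master regulator of cartilage, was the 1 called, higher in distal (log2 0.69, adjusted p = 4.7e-05 in the authors' deposited table). Of the 6, 3 had positive log2 changes and the median was 0.03, with Acan at -1.57 (adjusted p = 0.790 in the authors' deposited table). Of 9 muscle markers, 4 were lower in distal at an adjusted p under 0.05 and none higher; their summed level was 10.2 normalized counts in distal and 109.5 in proximal, and 4 of them (Myf5, Pax3, Pax7 and Tnnc1) had no distal count. The 4 surface ectoderm and 4 endothelial markers in the table had means of at most 0.57 and 0.59. The part of muscle or cartilage RNA in the values below was not tested.

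A TOP start can be read from annotated transcripts. In GENCODE M21 (GRCm38), 21 of the 79 genes (26.6%) had a coding transcript that began with C and at least 4 further C or T bases, against 810 of 13805 other genes (5.87%). Over principal transcripts alone these were 11 of 79 (13.9%) and 2.91%. This search used the transcript's own strand, and it says only where the annotation places the first base. The first 20 bases of a transcript from 6 of the genes are shown, with the tract in capitals. Rpl37 and Rpl39 carry the 2 differences called below, and the other 4 are genes with a tract, of several lengths. The tract is thus more frequent among those shown than in the 11 of 79 above. Transcripts of Rps12 and Rps9, read in the same way, had none.

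Rpl37: CTCTTCCggtctctttggcc
Rpl39: ggccaccaaggctgtggccc
Rpl4: CTTTTCCTgtgggagcagcc
Rpl32: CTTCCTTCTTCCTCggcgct
Rps24: CTCTTTTCCTCCTCTCCagc
Rps21: CCCTCCTgcccaatagtgct

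The tract was 7 bases long in Rpl37 and Rps21, 8 in Rpl4, 14 in Rpl32 and 17 in Rps24, and Rpl39 had none in this transcript. The median log2 change was -0.0040 among the 21 genes with the tract and 0.13 among the 58 without it, a difference that was not tested.

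The comparison asked which transcripts differed between the ends of the organoid. Most ribosomal protein genes lay close to equal levels. In the authors' deposited table the median log2 change (distal over proximal, positive where distal is higher) was 0.075 over the 79 genes, beside 0.067 over all 13916 genes and 0.0047 over the 3757 genes whose mean was 10 or more. It was 0.076 for the large and 0.072 for the small subunit. Positive changes were found for 47 of the 79 genes (59.5%), 28 of the large and 19 of the small subunit, against 54.5% of all genes and 50.6% of those with a mean of at least 10. Many members match another gene over the last 300 bases of a transcript, as described below. Of the 3757 genes, 269 have such a match, and 66.2% of these were positive. Among members, 58.3% of the 60 with a match were positive and 63.2% of the 19 without one. At the lowest counts the deposited sign can differ from the counts. Cdh1 and Krt14, with 0 distal counts and 1 proximal count each, had log2 changes of 1.19, and the values over all genes include such rows. No member had fewer than 4 counts on a side. The 79 genes spanned -0.67 (Rps9) to 1.67 (Rpl23a), and 70 of them lay within 0.5 of zero.

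An adjusted p under 0.05, over all features the authors tested, was given to 2 of the 79 genes (2.53%), where the same table called 0.977% of all genes. Both were large subunit genes and both were higher in distal, a direction called for 0.395% of all genes. No member was called higher in proximal, where the background was 0.582%. At an unadjusted p under 0.05 the table held 9 members, or 11.4% against 6.07% of all genes. Of the 9, 7 (8.86%) were higher in distal, where 2.56% of all genes were, and 2 (2.53%) were higher in proximal, where 3.51% were. Where the mean was at least 10, 6 of 71 members were higher in distal at this threshold and 2 in proximal. Of all 3757 such genes, 241 and 210 were. Among the 269 of them that match another gene at the transcript end, 33 and 3 were. At any mean, 3 of the 60 members with such a match were higher in distal and 2 in proximal. For the 19 members without a match these numbers were 4 and 0. These p-values come from the authors' model over regions and can be too small where regions of a side share a culture.

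A missing call does not show equal levels, so the intervals were counted as well. The 95% interval of the log2 change, computed from the deposited standard error, lay wholly between -1 and 1 for 65 of the 79 genes, 40 of the large and 25 of the small subunit, against 22.3% of all genes. Where the mean reached 10, it did so for 64 of 71 members (90.1%) and for 73.6% of all such genes. For these 65 genes a change of 2-fold in either direction lay outside the interval. The interval rests on the spread between regions and can be too narrow where regions of a side share a culture.

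**Figure D1:**
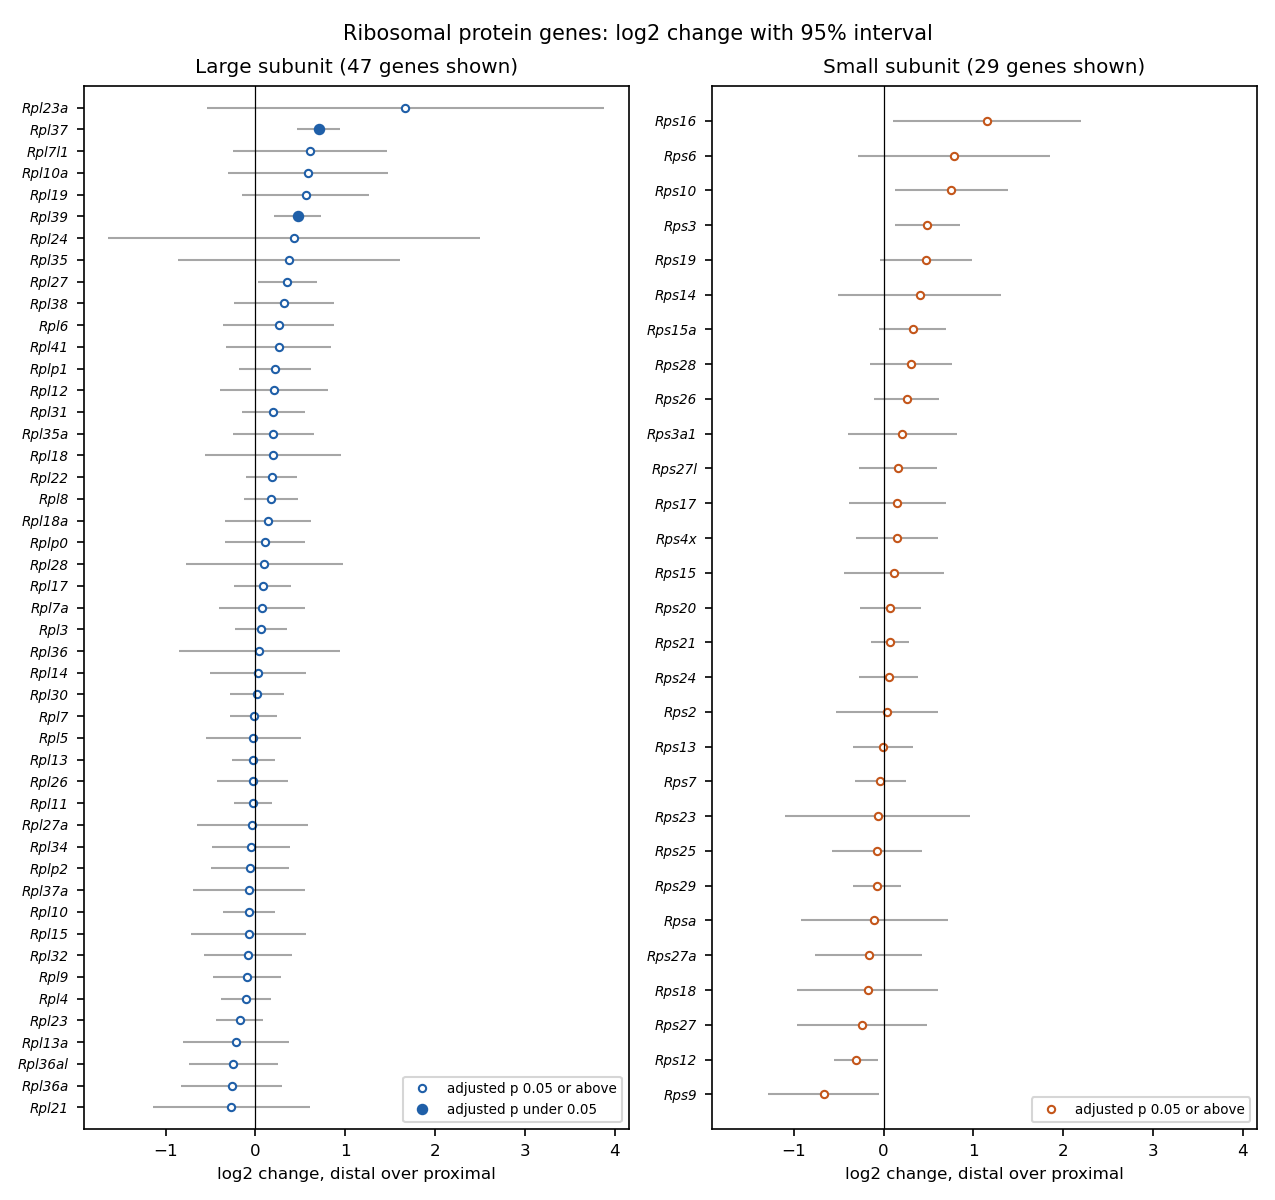
Log2 change, distal over proximal, of the 47 large subunit genes and 29 of the 32 small subunit genes (points), with the 95% interval from the deposited standard error (lines). Filled points are Rpl37 and Rpl39, with an adjusted p under 0.05; most intervals include zero, and the widest belong to Rpl23a and Rpl24.

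Rpl37 encodes a zinc-binding protein of the large subunit and lies on chromosome 15 (GRCm38 chr15:5116645-5119140, plus strand). The authors' deposited table gave it a mean of 219 normalized counts over the 10 regions. The mean and the change correspond to 272 normalized counts in distal and 167 in proximal, a 1.63-fold difference, from about 795 and 1608 counts. Its log2 change in the authors' deposited table was 0.71 ± 0.12 (SE, adjusted p = 3.59e-06). The 95% interval ran from 0.47 to 0.95. Values in single regions cannot be read from the table at this level, so it was not seen whether the regions overlap.

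Rpl39 encodes a very small protein that lines the exit tunnel of the nascent chain (chrX:37082520-37085402, minus strand). It stood at 106 normalized counts in distal and 76.6 in proximal, a 1.39-fold difference. In the authors' deposited table its log2 change was 0.47 ± 0.13 (SE, adjusted p = 0.0493), just under the threshold. Centred on the median of all genes, its log2 change became 0.40 and its adjusted p 0.169, so that the call was lost under that scaling. Centred on the median of genes above the median mean, its log2 change was 0.49 and its adjusted p 0.0314, so that the call was kept. Of the 9 genes listed for the exit tunnel, Rpl39 was the one called, where 0.977% of all genes were, and 114 of the 3757 with a mean of at least 10. Of the 9, 7 had positive changes, against 54.5% of all genes, and the median was 0.20. Rpl4, which also reaches into the tunnel and had the highest mean of all members, 381 normalized counts in the authors' deposited table, had a log2 change of -0.10 with an interval from -0.38 to 0.17.

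Among the large subunit genes not called, the largest changes belonged to genes with few counts. Rpl23a, a docking site for factors at the tunnel exit, had a log2 change of 1.67 ± 1.13 (SE) in the authors' deposited table, from 5 counts on each side. Rpl7l1, a paralog of Rpl7, had 0.61 ± 0.44 (SE) in the authors' deposited table. At the other end of the subunit, the authors' deposited table gave Rpl21 -0.27, Rpl36a -0.26 and its paralog Rpl36al -0.24, none called. Each of these intervals included zero.

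The P stalk, which recruits elongation factors to the large subunit, did not differ detectably. The authors' deposited table gave log2 changes of 0.11 for Rplp0, 0.22 for Rplp1 and -0.06 for Rplp2, and their intervals lay between -0.49 and 0.62. Rpl5 and Rpl11 join 5S RNA in a particle that also binds Mdm2. The authors' deposited table gave them log2 changes of -0.02 and -0.03, and the interval of Rpl11 ran from -0.24 to 0.18.

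In the small subunit none of the 32 genes was called, and 6 had an unadjusted p under 0.05. Rps16, a protein of the small subunit head, had the largest change, 1.15 ± 0.53 (SE, adjusted p = 0.742) in the authors' deposited table. Rps6, the classical substrate of S6 kinase, had 0.78 ± 0.54 (SE), and Rps10, which lies near the mRNA entry, had 0.75 ± 0.32 (SE) in the authors' deposited table. Towards proximal, the authors' deposited table had Rps9 at -0.67 ± 0.32 (SE) and Rps12 at -0.31 ± 0.12. Rps12 stood at 156 normalized counts in distal and 194 in proximal. Rps9 and Rps12 were the 2 members with an unadjusted p under 0.05 in that direction, with adjusted p = 0.794 and 0.470 from the authors' deposited table. The 13 listed proteins of the small subunit head had a median of 0.11, and 8 of them were positive.

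**Figure D2:**
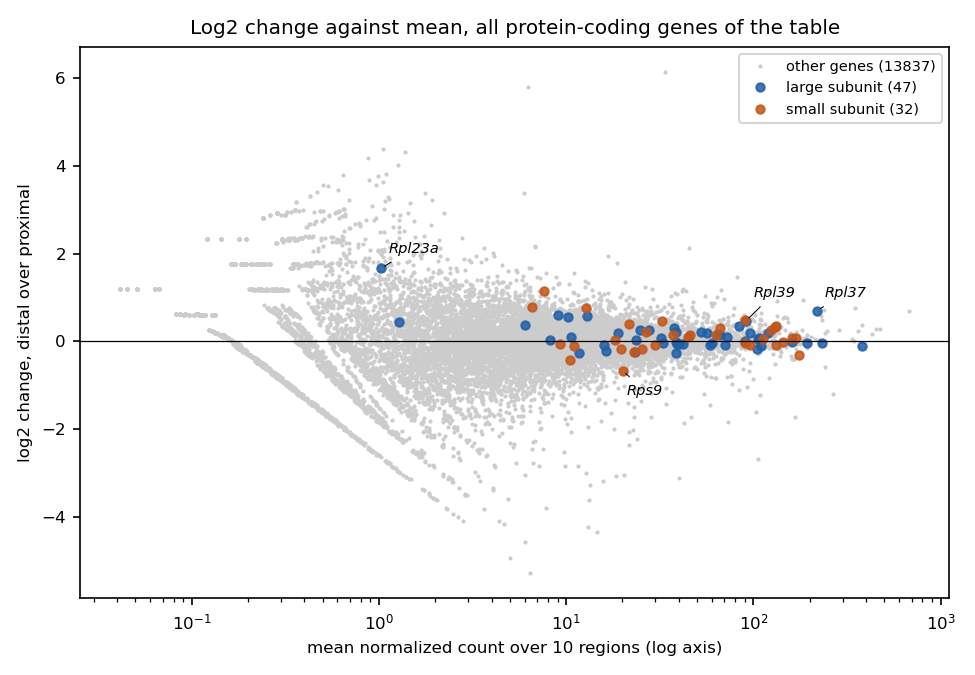
Log2 change against the mean normalized count (log axis) for the other genes of the table (grey), 47 large subunit genes (blue) and 32 small subunit genes (orange). The labelled genes include the 2 called, Rpl37 and Rpl39; the member with the largest change, Rpl23a, has a mean of 1.02.

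The 6 listed genes whose mutation alters the mouse skeleton, tail or pigment were examined as a group. None was called, where 0.977% of all genes were. Of the 6, 4 were positive, against 54.5% of all genes, and the median log2 change was 0.20. In the authors' deposited table the log2 change was 0.32 ± 0.28 (SE) for Rpl38, 0.43 ± 1.06 for Rpl24, 0.47 ± 0.26 for Rps19, 0.08 ± 0.17 for Rps20, -0.03 ± 0.15 for Rps7 and -0.04 ± 0.32 for Rpl27a. Rpl38 stood at 41.9 normalized counts in distal and 33.6 in proximal, and its interval ran from -0.24 to 0.87. The interval of Rpl24, from -1.64 to above 2, left its direction undetermined at 4 distal and 10 proximal counts.

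For genes with low means, the deposited values narrow the possible counts in each region. A set of counts was kept in this way for 7 of the 8 members with a mean under 10 (not for Rpl36). For Rpl23a and Rpl24 a single set of counts matched the mean, and the fit to the set of Rpl24 missed the deposited log2 change by 0.0029. For the others 1866 (Rpl35) to 73295 (Rps23) sets matched the mean, and the set nearest the deposited log2 change was kept. The next set missed that change by only 2.0e-05 in Rpl7l1 and 1.9e-05 in Rps23, so their counts are less certain. Regions are given in order of depth, from the deepest to the shallowest. Rpl23a had 2, 1, 1, 1 and 0 counts in the distal and 2, 0, 1, 1 and 1 in the proximal regions. After scaling, 4 distal regions lay above every proximal region, at 1.43 to 2.40 against 0 to 0.83 normalized counts, and the shallowest distal region held none. Rps16 had 11, 17, 3, 3 and 1 counts in distal and 14, 13, 8, 12 and 2 in proximal regions. Its 2 deepest distal regions, at 13.2 and 24.3 normalized counts, lay above all proximal regions (1.33 to 7.66), while the other 3, at 3.04 to 5.88, lay among them.

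Rps6 had 4, 12, 7, 3 and 0 counts in distal and 9, 11, 7, 5 and 15 in proximal regions. The sides overlapped, from 0 to 17.2 normalized counts in distal and from 3.19 to 9.99 in proximal. Rpl7l1 had 7, 7, 3, 7 and 6 counts in distal and 16, 12, 21, 14 and 4 in proximal regions, or 5.37 to 18.3 and 2.66 to 10.7 normalized counts. Rps23, a protein of the decoding site, had 14, 10, 2, 3 and 1 counts in distal and 21, 30, 13, 27 and 5 in proximal regions, which gave 3.04 to 16.8 and 3.33 to 17.2 normalized counts. For these 3 genes the ranges of the sides overlapped.

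Rpl24 had 1, 1, 0, 1 and 1 distal and 1, 5, 1, 2 and 1 proximal counts. Rpl35, which lies at the tunnel exit, had 9, 10, 0, 4 and 0 distal and 15, 15, 6, 15 and 3 proximal counts. It had no count in 2 distal regions and held 7.84 to 14.3 normalized counts in the other 3. The proximal regions of Rpl35 lay between 2.00 and 9.57, inside the distal range.

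**Figure D3:**
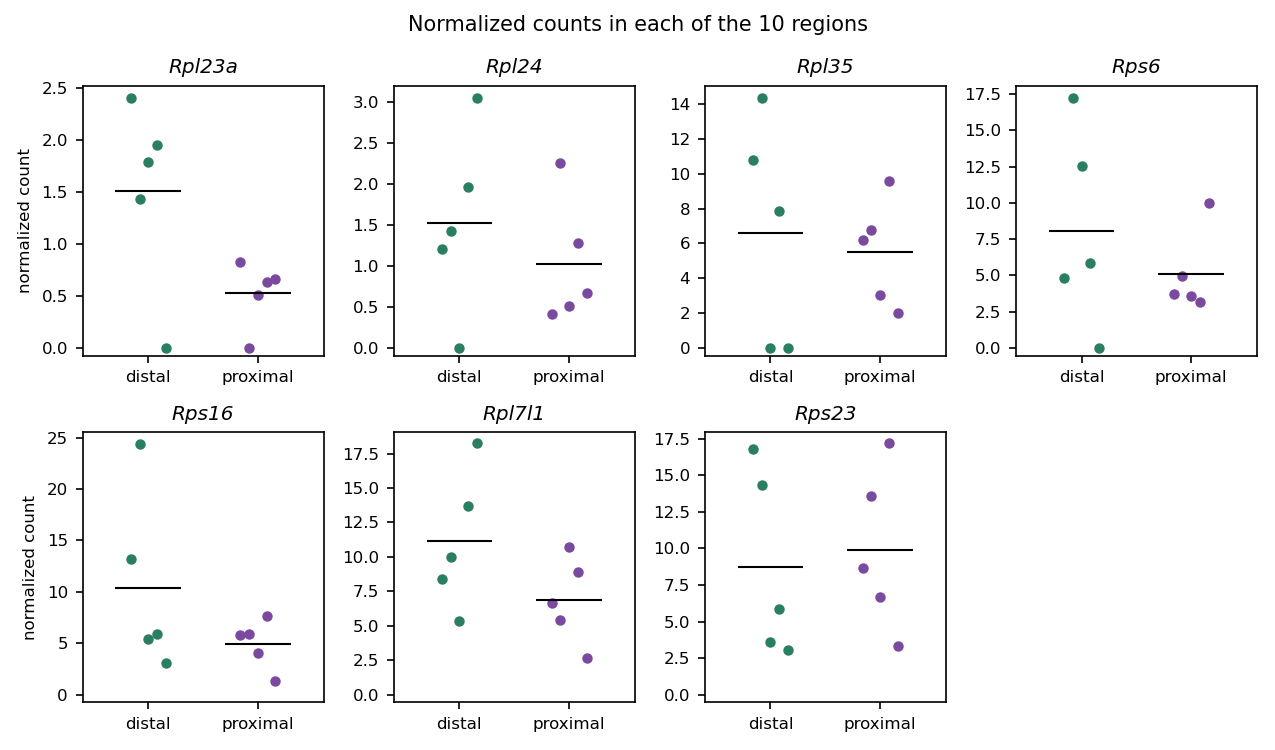
Normalized counts in the 5 distal (green) and 5 proximal (purple) regions for the 7 members for which a set of region counts was kept. Points run from the deepest region at the left to the shallowest, and lines are means. The ranges of the sides overlap in all 7 genes, and 4 of them have a distal region at 0.

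Rack1 and Fau fell outside the symbol rule. Rack1, a scaffold protein on the small subunit head, had a log2 change of 0.06 ± 0.20 (SE) in the authors' deposited table, and its sign turned on centring on the median of all genes (-0.0064). Fau encodes the small subunit protein eS30 fused to a ubiquitin-like protein. The authors' deposited table gave Fau a log2 change of -1.32 ± 0.92 (SE, adjusted p = 0.991). Its counts were 0, 5, 1, 2 and 1 in distal and 8, 34, 3, 29 and 1 in proximal regions. A pair of proximal regions, at 15.4 and 18.5 normalized counts, stood above all others, which lay between 0 and 7.16.

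The genes together took a similar share of the counts on both sides. They held 3.79% of the distal counts (95% Wilson interval 3.73 to 3.84%) and 3.56% of the proximal counts (3.53 to 3.59%), a ratio of 1.06. The large subunit made up 2.28% and 2.14%, and the small subunit 1.51% and 1.42%. These intervals cover counting error only, and with 1 library a side the difference was not tested. Without Rpl37 and Rpl39 the shares were 3.52% and 3.39%. In bulk regions such as these, fewer cells of a type and less RNA per cell cannot be told apart.

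Levels differed widely between the genes when set per length. The mean per kilobase of coding sequence ran from 2.17 normalized counts for Rpl23a to 776 for Rps29, with a median of 102. The large subunit median was 109 and that of the small subunit 96.3. Rpl37 at 745 and Rpl39 at 586 were among the highest by this scale. Their coding sequences are short, at 294 and 156 bases, as is that of Rps29 at 171, though Rpl41 at 141 bases stood at 196. Whether counts rise with coding length was not tested, so this scale may rank short genes high. Rpl23a, the lowest, has 20 near-identical copies of its coding sequence, which are described below.

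Ribosomal protein genes have given rise to many processed copies in the mouse genome, and a read from a copied stretch cannot always be placed. The last 300 bases of a coding transcript matched another gene (95% identity or more over 200 bases or more) for 60 of the 79 genes (75.9%), against 5.58% of all genes in the table. Matched over the coding sequence, 73 members (92.4%) had such a copy, against 7.06% of all genes. Neither Rpl37 nor Rpl39 had a copy of its end, but both had a copy of the coding sequence, at 99.7% identity for Rpl37 and 99.3% for Rpl39. Rpl5 and Rpl11 had copies of both kinds, while neither was found for Rpl8 or Rps27l. How the authors assigned reads with several matching places is not given in the sources used here, so values of the genes with copies are uncertain.

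The coding stretches below show how little separates some of these genes from their copies. Each is 80 bases of the coding sequence of a member and the matching stretch of its copy (GENCODE M21), with a differing base in capitals.

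Rpl35: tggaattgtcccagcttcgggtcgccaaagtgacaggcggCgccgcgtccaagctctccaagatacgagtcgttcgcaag
Gm2000: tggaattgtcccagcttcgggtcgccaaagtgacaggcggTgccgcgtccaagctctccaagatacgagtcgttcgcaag
Rpl37: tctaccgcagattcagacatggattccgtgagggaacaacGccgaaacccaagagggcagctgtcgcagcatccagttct
Rpl37rt: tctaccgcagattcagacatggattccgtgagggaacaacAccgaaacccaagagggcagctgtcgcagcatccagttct
Rpl10: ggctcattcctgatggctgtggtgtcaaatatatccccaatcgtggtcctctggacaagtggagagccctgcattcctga
Rpl10-ps3: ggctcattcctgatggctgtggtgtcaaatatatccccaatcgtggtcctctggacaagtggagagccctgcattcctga

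Counted from 1 at the first base of the start codon, the Rpl35 and Gm2000 stretches differ by C117T over 372 coding bases, with the base of Rpl35 first. Rpl37 and Rpl37rt, a transcribed processed pseudogene (chr5:115102923-115110268, minus strand), differ by G249A over 294 bases. Rpl10 (chrX:74270812-74273135, plus strand) and Rpl10-ps3 (chr9:50344201-50344968, minus strand) share all 645 bases. Rpl37rt has no row of its own among the protein-coding genes analysed here, while Gm2000 and Rpl10-ps3 do.

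In all, 9 other rows of the table were near-identical at the end of the transcript to a member, a set chosen after values were seen. Of these rows 2 were called, both higher in distal, beside 0.977% of all genes. Of the 269 genes with a copy of their end and a mean of at least 10, 10 were called, 9 of them higher in distal. Positive log2 changes were held by 8 of the 9 rows, beside 66.2% of those 269 genes, and 8 lay above the log2 change of their member. Gm11032 counts among both sets of 8, although its only count was proximal. In the authors' deposited table Rpl10-ps3 had a mean of 67.4 normalized counts and a log2 change of 1.17 ± 0.15 (SE, adjusted p = 4.96e-12). Rpl10 itself, with a mean of 70.2, had a log2 change of -0.07 ± 0.15 (SE) in the authors' deposited table. The sum of both rows had a log2 change of 0.51, and the copy's row held 57.7% of it in distal and 36.6% in proximal.

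Wdr89, whose protein is no ribosomal one, has near the end of its transcript a stretch (bases 2347 to 2646 of 2979, beyond its coding part, which ends at base 1257) that matches Rplp2 at 99.7%. The authors' deposited table gave Wdr89 a log2 change of 1.03 ± 0.17 (SE, adjusted p = 3.36e-07). Rplp2 stood at -0.06 in the authors' deposited table, and the sum of both at 0.54. Which of these counts came from which gene cannot be told apart in this table.

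The other 7 rows were not called. Gm2000 (chr1:156366040-156366484, plus strand) had 72.8 mean normalized counts in the authors' deposited table, where Rpl35 had 6.06, and both had a log2 change of 0.37 or 0.38. Rps27rt had 0.35 and Rps27 -0.24 in the authors' deposited table, from a coding stretch of 255 bases without a difference. For Rpl9-ps6 the authors' deposited table gave 0.41, and for Rpl9 -0.10. Rps18-ps5 and Rpl36a-ps1, with means of 2.25 and 4.40, stood at log2 1.45 and 0.65 in the authors' deposited table with wide intervals, and BC004004 beside Rpl21 had -0.19. Gm11032 beside Rps24 held 1 count, in proximal, and its deposited log2 change of 1.19 does not follow that count. With these 9 rows added, the share of the counts was 4.05% in distal and 3.73% in proximal.

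**Figure D4:**
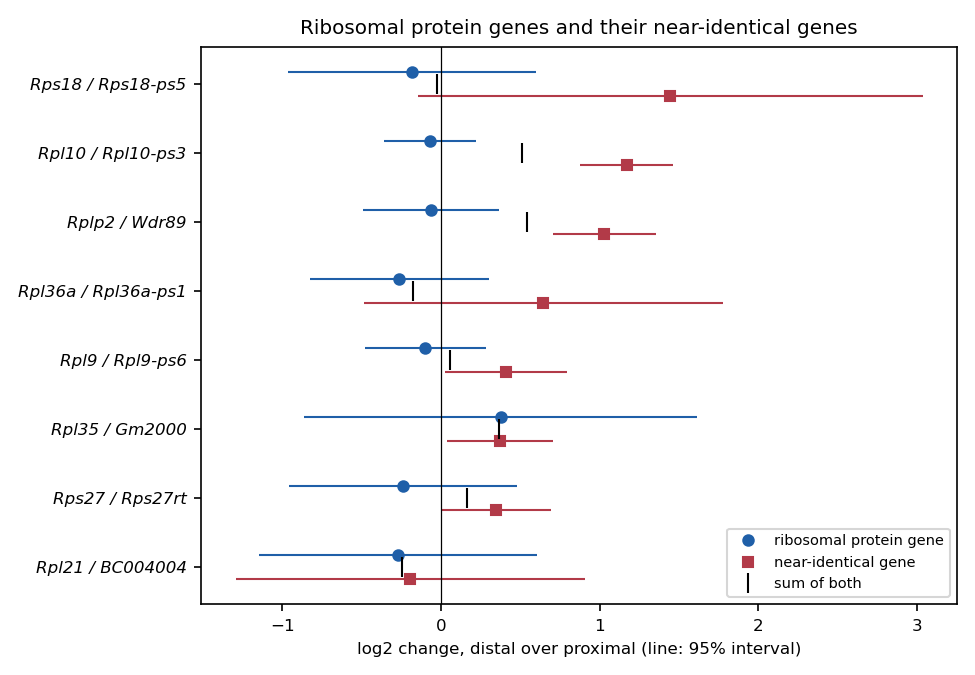
Log2 change of 8 ribosomal protein genes (blue circles) and of the row near-identical to each (red squares), with 95% intervals, and the change of both rows summed (black ticks); the pair of Rps24 and Gm11032 is left out because the latter held 1 count. The intervals of Rpl10-ps3 and Wdr89 lie above those of Rpl10 and Rplp2.

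The spread between regions of a side was read from the deposited standard errors, as the coefficient of variation (CV) left after counting noise that the authors' model implies. Among the 71 members with a mean of at least 10 the median CV was 0.19, where genes of like mean (the 200 nearest) had 0.15, and 50 of the 71 lay above their own such value. The lowest was 0.088, for Rps21, and the highest 0.45, for Rps14. Rpl37 stood at 0.11 and Rpl39 at 0.10, below the 0.13 and 0.14 of genes of like mean. Over members of any mean the median CV was 0.21 for the 60 with a copy of their end and 0.17 for the 19 without one, a difference that was not tested. The groups were not matched on level: their median means were 38.8 and 64.7 normalized counts. The deposited values do not show which regions carry this spread.

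**Figure D5:**
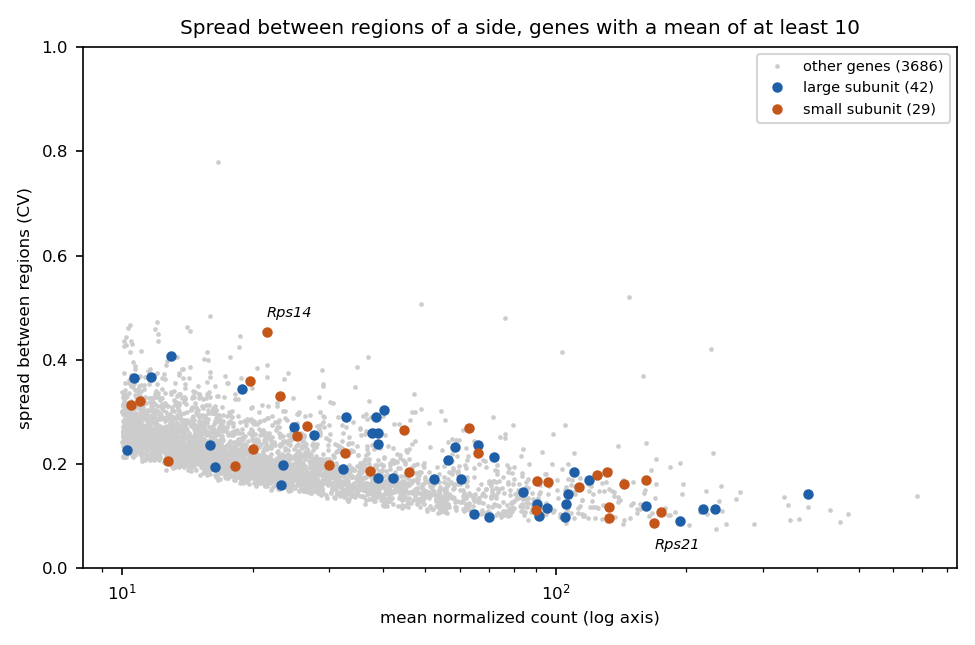
CV between regions of a side against the mean normalized count (log axis) for genes with a mean of at least 10: 3686 other genes (grey), 42 large subunit genes (blue) and 29 small subunit genes (orange). Rps14, at 0.45, stands above the other members, and Rps21, at 0.088, is the lowest.

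Genes that work with ribosomal proteins were set beside them. Of 66 listed ribosome biogenesis genes in the table, which process ribosomal RNA and assemble subunits, none was called, where 0.977% of all genes were. Of the 66, 1 had an unadjusted p under 0.05 (lower in distal, as for 3.51% of all genes), and the median log2 change was 0.05. That gene was Bms1, a GTPase of small subunit assembly, with a log2 change of -1.40 (adjusted p = 0.279) in the authors' deposited table. Taf1d, a subunit of the RNA polymerase I factor SL1, had 0.49 (adjusted p = 0.983) by the authors' deposited table. Of 18 other TOP mRNAs, which encode translation factors and related proteins, none was called, where 0.977% of all genes were. Of the 18, 2 had an unadjusted p under 0.05, both higher in distal, where 2.56% of all genes did, and the median was 0.12. These were Btf3, a subunit of the nascent polypeptide-associated complex, with 0.69 (adjusted p = 0.278), and Eef1g, a subunit of elongation factor eEF1, with 0.97 (adjusted p = 0.772) in the authors' deposited table.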

How the data were processed

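Photo-isolation chemistry libraries of 5 distal and 5 proximal regions were compared by the authors, and the values used here are those of their deposited comparison table. Per the file headers it has the DESeq2 layout, with a mean signal in normalized counts over all regions, a log2 change with its standard error, a score (the change over its error), a p-value and an adjusted p, all computed by the authors and deposited for 13916 protein-coding genes. Reads were mapped to mm10 (GRCm38), per the submitters' processing notes. The aligner, the counting and the annotation are not given in the sources used here. The adjusted p covers more features than the table lists.

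No new count test was run. Computed here were 95% intervals (change plus or minus normal quantile times standard error), size factors of the 10 regions from the steps of the lowest means, and whole region counts. These are the one set of counts matching the deposited mean or, where several did, the one whose negative binomial fit gave the deposited log2 change within 5e-06 (next set at least 1e-05 away). For genes with a mean under 1.6, 99.8% had 1 matching set. Side counts of the other genes came from the mean and the change, and on the 10 genes compared with recovered counts they were off by at most 12.8%. Copies were searched with BLAST 2.17.0 in GENCODE M21 transcripts. Python 3.11.15, numpy 2.4.6, pandas 2.3.3 and scipy 1.17.1 were used.

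The members and lists were chosen with earlier results of these data known. Named genes are all called members, the paralogs, the stalk, 5S particle and mutant lists, the 3 highest and 3 lowest log2 changes of each subunit with over 3 counts on both sides, the uncalled member with the smallest adjusted p, and, of the biogenesis and TOP lists, the 2 with the smallest p. Other named genes were chosen after their values were seen. Values of 3 small subunit genes are not reported here one by one.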

Additional observations from a re-analysis of the deposited data

Results flagged for a closer look

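In Rps6, 1 of the 5 proximal regions, the shallowest, stood at 9.99 normalized counts (15 counts), while the others lay between 3.19 and 4.98. The gap to the nearest region, over the whole range, was 0.737, above the 95% critical value of 0.71 for 5 values. This was 1 of 14 groups of regions checked, and chance flags about 1 in 20.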

How the results depend on the processing

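No paired analysis was possible because each side is 1 library and no label ties its regions to those of the other side; for the same reason no replicate could be left out. Of the 2 calls, 1 (Rpl37) was left at an adjusted p of 0.01 and 1 (Rpl37) after centring on the median of all genes, 0.067. Both stayed after centring on the median of genes above the median mean, -0.018. Of the 2, 0 had a log2 change of at least 1. With members that have a copy of their coding sequence left out, a setting chosen after seeing the data, 0 calls were left. Without members that have a copy of their end, 12 of 19 log2 changes were positive. The share of counts in distal and proximal was 3.52% and 3.39% without the called genes, 1.23% and 1.12% without genes with a copy of their end, 3.53% and 3.28% without Rpl4, and 3.91% and 3.65% with the 10 highest other genes out of the total. The log2 ratio of the shares, 0.089, was 0.055 without the called genes, 0.14 without genes with such a copy and 0.12 with the 9 near-identical rows added, also chosen after seeing the data. Of 64 single gene values under both centrings, 1 turned, Rack1, to -0.0064. The longest coding transcript alone gave 38 members with a copy. Under the 6 settings run for each, the median log2 change stayed positive, at 0.0092 to 0.13 for the large and 0.0050 to 0.090 for the small subunit. Depth limits single genes with means under 10, whose intervals mostly exceed 2-fold.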
